A study of Mus musculus with 9 samples.

Results

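H3K27me3 regions that lie close to a binding site of T-bet were examined in mouse T helper 1 (Th1) cells, wild type or Tbx21-/-. A region counted as close when the gap between its edge and the edge of the nearest listed T-bet peak was at most 20000 bp on the same chromosome, with overlap counted as 0, and the gap itself chose the regions. By this rule 607 of the 3949 listed H3K27me3 regions were close to T-bet, 15.4% (exact Clopper-Pearson 95% interval 14.3 to 16.5), and the other 3342 regions served for comparison. The 607 regions had 403 closest genes, as named by the authors, out of 2870 over the whole list.

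All samples were Th1 cells from C57BL/6 mice with a T-bet-ZsGreen reporter, either wild type or Tbx21-/-. Naive CD4+ T cells were stimulated with antibodies to CD3 and CD28 beside irradiated, T-cell-depleted splenocytes in IL-2, IL-12 and anti-IL-4, and the ZsGreen-positive fraction was then purified and grown on, per the labels' protocols. Cells of both genotypes were therefore selected for activity of the T-bet reporter, and the labels do not say how many mice gave the cells. RNA-seq was made from 2 libraries per genotype, ChIP-seq for H3K27me3 and H3K4me1 from 1 library per genotype each, and ChIP-seq for T-bet from 1 wild type library. The defining Th1 genes Tbx21, Ifng, Cxcr3 and Il12rb2 had wild type levels of 271, 1011, 26.3 and 111 FPKM in the authors' deposited table. The Tbx21-/- levels there were 124, 19.5, 0.357 and 24.4 FPKM. RNA assigned to Tbx21, the targeted gene, was thus still listed in Tbx21-/- cells, and the labels do not say which part of the gene was deleted, so this level does not check the genotype. Each of these 4 genes was the closest gene of 0 H3K27me3 regions.

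H3K27me3 is the trimethyl mark that Polycomb repressive complex 2 places on histone H3, and it is known for covering silent genes, among them developmental regulators and, in helper T cells, genes of the lineages a cell has not taken. T-bet, encoded by Tbx21, is a T-box transcription factor that drives the Th1 programme and opposes other helper lineages. H3K4me1 marks enhancers and the flanks of active promoters. The H3K27me3 list carries WT and TbetKO in its name but gives 1 tag count per region without saying in which genotype the mark was stronger. No region is therefore called gained or lost here.

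The promoter windows of 3 genes with regions close to T-bet, each on the authors' list of genes higher in Tbx21-/- cells, are shown because they differ in CpG dinucleotides, and Polycomb complexes often occupy promoters rich in them. The sequences are from RefSeq, build GRCm38.p6, cover 250 bases before to 50 after the first listed start of each gene, and have their CpG dinucleotides in capitals.
Ifngr2, chr16:91546809-91547108, plus strand: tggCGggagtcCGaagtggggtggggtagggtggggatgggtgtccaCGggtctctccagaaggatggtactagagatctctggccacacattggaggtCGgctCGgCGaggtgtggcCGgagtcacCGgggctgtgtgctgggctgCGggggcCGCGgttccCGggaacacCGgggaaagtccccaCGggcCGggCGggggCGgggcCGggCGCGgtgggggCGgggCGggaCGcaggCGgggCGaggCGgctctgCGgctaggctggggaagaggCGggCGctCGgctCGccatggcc
Ccr6, chr17:8235793-8236092, plus strand: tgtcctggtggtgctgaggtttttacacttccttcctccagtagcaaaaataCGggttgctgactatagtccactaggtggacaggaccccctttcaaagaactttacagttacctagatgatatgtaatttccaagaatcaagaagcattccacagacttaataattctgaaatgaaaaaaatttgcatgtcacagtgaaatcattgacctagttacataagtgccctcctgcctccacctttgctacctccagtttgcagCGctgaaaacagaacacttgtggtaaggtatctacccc
Ccr8, chr9:120091883-120092182, plus strand: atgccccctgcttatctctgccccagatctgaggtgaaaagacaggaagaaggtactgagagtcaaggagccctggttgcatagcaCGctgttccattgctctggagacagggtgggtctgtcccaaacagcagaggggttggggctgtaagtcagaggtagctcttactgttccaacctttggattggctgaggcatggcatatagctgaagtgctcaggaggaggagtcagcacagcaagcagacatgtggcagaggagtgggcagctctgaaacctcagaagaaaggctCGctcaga
The Ifngr2 window held 31 CpG dinucleotides in 300 bases, with 74.3% G or C. The Ccr6 and Ccr8 windows held 2 each, with 42.3% and 54.0% G or C, and Ccr6 has 2 listed starts, of which the first is shown. The positions of the H3K27me3 regions and T-bet peaks below are in another build, mm9, and were not compared with those of the promoters. A T-box motif of the letters GGTGTGA, searched on both strands, was found in the window at the first listed start of 1 of the 17 genes with a promoter entry among the 21 close genes on that list, Cyp11a1, and in 3.96% of all 27025 genes of the promoter table.

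The distance to T-bet was small compared with the rest of the list, as the rule requires, and rarely 0. The 607 close regions had a median gap of 7642 bp, with quartiles of 3765 and 12759 bp. Their nearest peaks were 408 different T-bet peaks. The nearest peak had the same closest gene as the region in 520 of 607 cases, 85.7% (exact 95% interval 82.6 to 88.4). Among the other 87 was the region of Ifnar1, an interferon receptor gene, whose nearest peak was assigned to Ifngr2. The 5 regions just inside the limit were at Ncoa2, G530011O06Rik, Ifne, S1pr1 and Usp36, at 19857 to 19995 bp with 12, 197, 13, 16 and 14 tags. The 5 just outside were at Lsm14a, Bcl11b, AI847159, Cfdp1 and Mgll, at 20086 to 20150 bp with 15, 15, 26, 23 and 22 tags. Mgll, the monoglyceride lipase gene, thus had regions on both sides of the limit, 3 inside and 2 outside.

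Direct overlap with T-bet was found in 15 of the 607 regions, 2.47% (exact 95% interval 1.39 to 4.04), at 14 closest genes. They were at D2hgdh, 3830408C21Rik, Fam105a, Lpp, Ifngr2, Ccr6, Sfpi1 with 2 regions, Spry1, S1pr1, Vmn1r2, Fam76a, Trpm1, Cib1 and Atm. Sfpi1, now named Spi1, encodes PU.1, a transcription factor of myeloid and B cells. Its regions on chromosome 2 at 90927510 to 90927891 and at 90927998 to 90929119, with 16 and 39 tags, both met the same T-bet peak at 90927617 to 90928048, which had 13 tags and a fold enrichment of 4.96. S1pr1, the receptor that lets lymphocytes leave lymph nodes, had a region on chromosome 3 from 115496383 to 115497012, with 19 tags and 10.2-fold enriched, of which 237 bp were shared with a T-bet peak. Spry1, an inhibitor of receptor tyrosine kinase signalling, shared 47 bp of a region of 1080 bp. The region at D2hgdh, of 432 bp, lay within its T-bet peak over its whole length. Fold enrichments of regions and peaks are the authors' peak caller's own values. For T-bet the labels name an input library as the control. For H3K27me3 they do not say what the fold enrichment is measured against, so it is not read here as a level of the mark.

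Regions close to T-bet were longer and held more tags than the other H3K27me3 regions. Their median length was 572 bp (order-statistic 95% interval of the median 550 to 589, n = 607), against 496.5 bp (488 to 508, n = 3342). The median tag count was 22 (20 to 23) against 18 (17 to 18). Regions not far outside the limit came nearer to the close ones, with medians of 534 bp and 20 tags at 20 to 50 kb from T-bet. At 50 to 100 kb the medians were 553 bp and 21 tags, and in the 2361 regions beyond 100 kb 482 bp and 17 tags. Regions of at least 1000 bp made up 18.8% (exact 95% interval 15.7 to 22.1) of the close and 8.77% (7.83 to 9.78) of the other regions, and those with at least 50 tags 11.5% (9.10 to 14.3) and 4.70% (4.01 to 5.47). Per kb the difference was small, with medians of 37.5 (36.9 to 38.2) and 36.2 (35.9 to 36.5) tags. The caller's fold enrichment went the other way, with medians of 6.94 (6.67 to 7.08) and 7.33 (7.16 to 7.38). These values describe the lists: neighbouring regions share a library and often a locus and a T-bet peak, regions are not replicates, and no test over them was run.

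**Figure D1:**
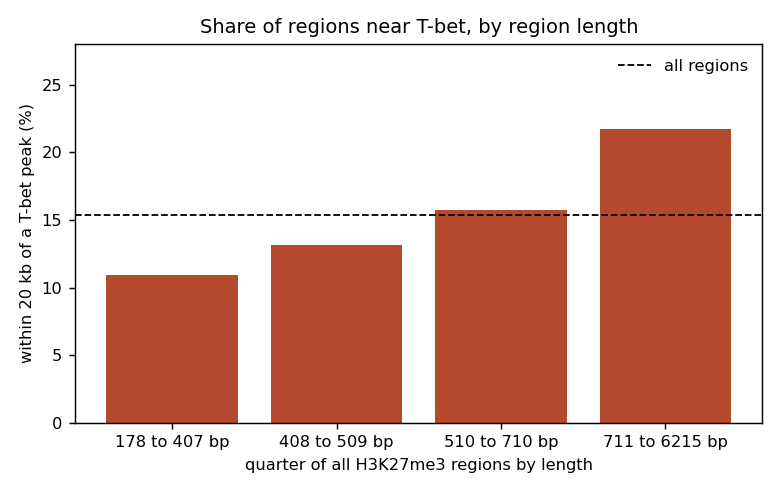
The bars give the share in percent of H3K27me3 regions within 20 kb of a T-bet peak, in 4 classes of nearly equal size made from all 3949 regions by length in bp, and the dashed line is the share over all regions, 15.4%. The share was 10.9% in the shortest class, 13.2% and 15.7% in the next ones and 21.7% in the longest.

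By length class, median tag counts were equal or nearly equal in close and other regions, except in the longest class. Among regions of 178 to 407 bp the median was 13 tags in close and in other regions. At 408 to 509 bp it was 16 and 15 tags, and at 510 to 710 bp it was 22 in both groups. At 711 to 6215 bp it was 41.5 tags in close and 36.0 in other regions, with median fold enrichments of 5.31 and 5.30. This longest class held 214 of the 607 close regions and spans a wide range, within which lengths were not matched.

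The regions with the most tags were led by Cttn, Vmn1r2 and G530011O06Rik. The region at Cttn, which encodes the actin-binding protein cortactin, covered 6215 bp on chromosome 7 from 151622476 to 151628690 with 304 tags, 4243 bp from a T-bet peak. The remaining regions among the 10 highest were at B930092H01Rik, with 189 and 136 tags, Smug1 with 181, Pbx3 with 152, Ptk2 with 129, Gm5122 with 125 and Ptgs1 with 123. Pbx3, a homeodomain transcription factor gene, had its region of 3159 bp at 306 bp from T-bet and overlapping an H3K4me1 region. Ptk2 encodes focal adhesion kinase, and Ptgs1 encodes cyclooxygenase-1. None of these closest genes was on an expression list.

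Many of the close regions sat in clusters. When regions at most 20000 bp apart were joined, the 607 regions formed 400 loci, of which 303 held 1 region and 47 held 3 or more, and these 47 held 204 regions or 33.6%. The other regions formed 2901 loci, of which 70 held 3 or more, with 7.54% of the regions. The rule takes up neighbouring regions around a peak together, so that clustering is in part built into the choice. By closest gene, 46 of the 403 genes, 11.4%, had 3 or more close regions, and 122 of the 2467 genes with only distant regions, 4.95%, had 3 or more. This contrast was smaller than that by locus. Large numbers were 11 at Ifngr2 and at 4933403F05Rik, 9 at B230120H23Rik, 8 at Ralb, 7 at Ampd3, 6 at Insig1, Ccr6 and Ext1, and 5 at Pbx3 and Apod. Genes with 4 were B930092H01Rik, G530011O06Rik, Spry1, 2410131K14Rik, Rptor, Ccdc55, Ptpn1, Sfpi1, Arhgef16, S1pr1 and Pag1. Genes with 3 were Gm5122, Tox2, Nrsn2, Ptgs1, Tcea3, Slfn5, Evl, Pde8a, Ankrd55, Socs3, Prss39, Mrpl14, Lif, Xirp1, Tspan32, Fos, Serping1, Cass4, Mgll, Rnf19b, Galnt10, Rnf141, Fut8 and Gata3.

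Ifngr2, which encodes the signalling chain of the interferon-gamma receptor, had the most regions in 1 joined locus, 12 with the region of Ifnar1. Its 11 close regions lay between 91520435 and 91555756 on chromosome 16, covered 9261 bp and held 423 tags, from 17 to 94 per region. The region with the most tags, at 91534320 to 91536236, overlapped a pair of T-bet peaks with 23 and 49 tags and fold enrichments of 3.56 and 4.11. The second of these had a false discovery rate of 4.17% in the authors' list, against 0.38% for the first. The 6 close regions to the right of the peaks had 22 to 40 tags, with fold enrichments of 5.16 in the one nearest to the peaks and of 10.1 to 13.3 in the other 5. The locus held 1 H3K4me1 region, at 91545516 to 91547196, which overlapped an H3K27me3 region of 33 tags. Beyond the 11 close regions Ifngr2 had 2 distant ones, farther to the right, with fold enrichments of 5.35 and 11.1. Ifnar1 and Ifnar2, on the same chromosome, encode the chains of the type I interferon receptor and had 1 close region each, with 25 and 30 tags. The region of Ifnar1 belonged to the same locus as those of Ifngr2.

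Ccr6, a chemokine receptor of Th17 cells, had 6 regions and all 6 were close to T-bet. They lay between 8428819 and 8455914 on chromosome 17 with 50, 22, 45, 25, 41 and 17 tags from left to right. The T-bet peak from 8444586 to 8444946, of 18 tags and 6.55-fold enriched, overlapped the region of 25 tags by 180 bp, and its false discovery rate was 1.39% in the authors' list. The nearest H3K4me1 region was 57951 bp from the region of 17 tags and 68482 bp from the overlapped region of 25 tags. The regions next to the overlapped one stood 548 to 2132 bp from the peak, and the outermost 14715 and 10573 bp.

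Ralb, encoding a small GTPase of the Ras family, had 8 regions between 121364406 and 121395731 on chromosome 1, covering 9665 bp with 385 tags. A T-bet peak of 9 tags, at 121373457 to 121373783, lay between the regions of 36 and 48 tags, and an H3K4me1 region of 24 tags lay in the same gap at 121371816 to 121372283. At Ralb the H3K27me3 regions therefore flanked the bound site on both sides without reaching it, the nearest at 4071 bp.

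**Figure D2:**
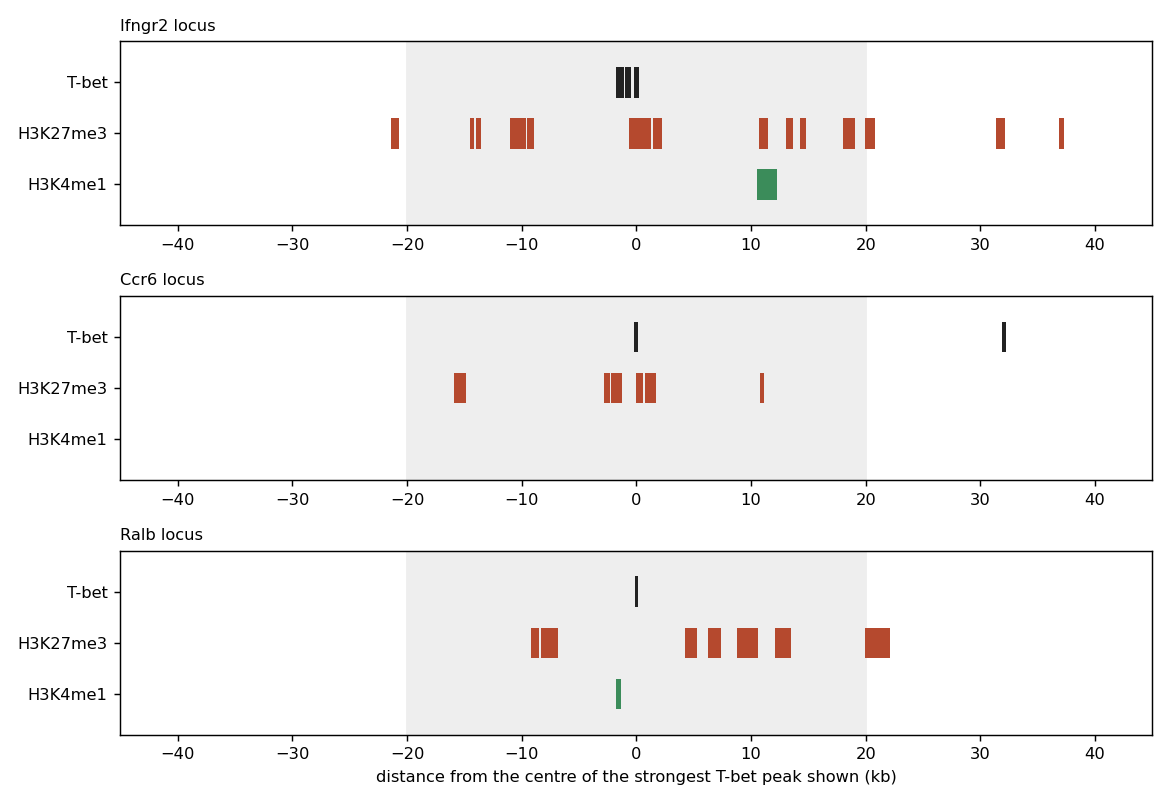
Maps of the Ifngr2, Ccr6 and Ralb loci to scale, with distance in kb from the centre of the strongest T-bet peak at 0 and the span 20 kb to each side shaded. T-bet peaks are black, H3K27me3 regions red and H3K4me1 regions green. H3K27me3 regions stood on both sides of T-bet in each locus, and overlapped a peak at Ifngr2 and Ccr6 only.

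Genes listed as changed between the genotypes were found beside close regions in both directions. Of the 403 closest genes, 21 were on the authors' list of genes higher in Tbx21-/- cells, 5.21% (exact 95% interval 3.25 to 7.86), where 2.40% of all 2870 closest genes of the H3K27me3 list were. The list of genes with less RNA in Tbx21-/- cells held 11, 2.73% (1.37 to 4.83), where 1.25% of all closest genes were. Among the 2467 genes with only distant regions the shares were 1.95% (1.44 to 2.57) and 1.01% (0.657 to 1.49). Seen from the other side, 30.4% (19.9 to 42.7) of the 69 higher genes with an H3K27me3 region and 30.6% (16.3 to 48.1) of the 36 lower genes had a close one, against 13.4% (12.2 to 14.7) of the 2765 genes on neither list. The difference between the directions was not tested, and the intervals are wide. These shares compare lists from the same cells, and no test was run. Expression was given as 1 FPKM value per genotype with no error, and in bulk RNA fewer cells of a type and less RNA per cell cannot be told apart.

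**Figure D3:**
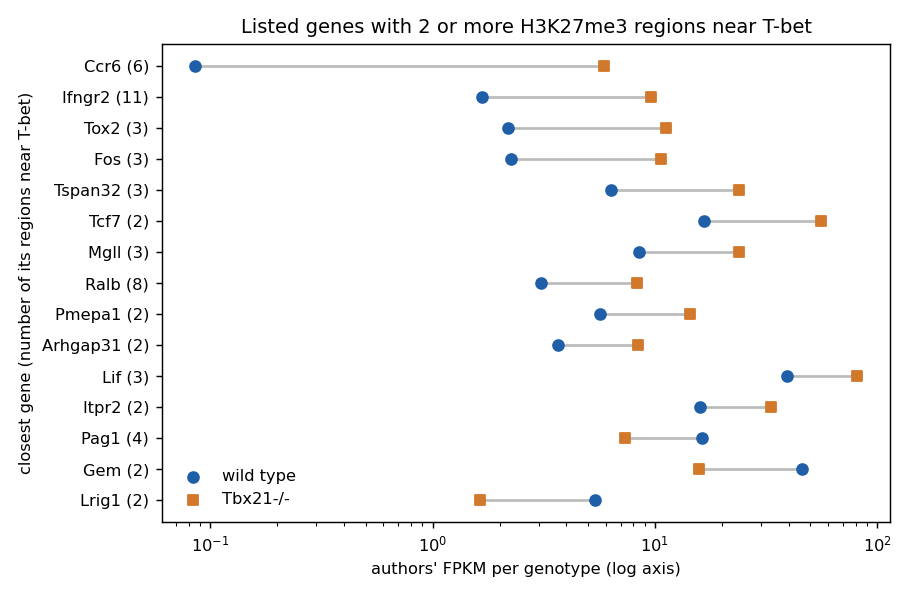
Each row is a listed gene with at least 2 H3K27me3 regions within 20 kb of T-bet, with the number of such regions in brackets. Circles give the authors' FPKM in wild type and squares that in Tbx21-/- cells, on a log axis and without error bars because each genotype has 1 value. The 12 upper genes were higher in Tbx21-/- cells, with up to 11 regions at Ifngr2, and the 3 lower genes were lower, with at most 4 regions, at Pag1.

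The genes higher in Tbx21-/- cells had more and longer close regions than those lower. The 21 higher genes had 57 close regions, 2.71 per gene, with a median length of 751 bp and a median of 31 tags. The 11 lower genes had 16 close regions, 1.45 per gene, with medians of 411 bp and 17 tags. Close regions of genes on neither list lay between, with medians of 560.5 bp and 21 tags over 534 regions. Among distant regions the medians were 560 bp and 20 tags for higher and 454 bp and 16 tags for lower genes, the same order with smaller distances. Ifngr2, Ralb and Ccr6 held 11, 8 and 6 of the 57. An H3K4me1 region lay within 20 kb of 40.4% of the close and 11.5% of the distant regions of higher genes, and of 37.5% of the close and 36.6% of the distant regions of lower genes. Counted by region, a contrast between close and distant was thus listed for the higher genes and not for the lower genes. These regions are not independent, since the 11 close regions of Ifngr2 and the 8 of Ralb had 1 H3K4me1 region per locus. The lower genes had only 16 close regions, and the difference between the 2 lists was not tested.

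The 21 higher genes included 2 of the chemokine list, Ccr6 and Ccr8, and 1 of the cytokine receptor list, Ifngr2. Genes of these lists with only distant regions were higher in Tbx21-/- cells too, namely Ccr4 and the receptor genes Il9r, Csf2rb2 and Tnfrsf8. Ccr6 had 0.0853 FPKM in wild type in the authors' deposited table and 5.90 in Tbx21-/- cells, a log2 ratio of 5.55 that rests on a wild type value near 0. Ifngr2 stood at 1.66 and 9.57 FPKM in that deposited table, a log2 ratio of 2.50, with the largest number of close regions. Ccr8, a receptor of Th2 and regulatory T cells, stood at 26.5 and 78.8 FPKM in the authors' deposited table and had 1 close region of 496 bp with 18 tags, 3790 bp from T-bet.

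The higher genes also included 2 of the T helper lineage transcription factor list, Tcf7 and Tox2, and other regulators of transcription. Of the genes of that list with only distant regions, Id3, Pparg and Pou2af1 were higher in Tbx21-/- cells and Irf8 and Foxp1 lower. Tcf7, which encodes TCF-1, a factor of naive, memory and follicular helper cells, stood at 16.6 and 55.7 FPKM in the authors' deposited table, and its close regions held 39 and 44 tags at 1041 and 4489 bp from T-bet. Tox2, a factor of follicular helper cells, stood at 2.18 and 11.3 FPKM in that deposited table. Its 3 close regions covered 4887 bp with 209 tags, and the longest, of 2912 bp, lay 1220 bp from a T-bet peak. Fos, a subunit of the AP-1 factor, stood at 2.25 and 10.7 FPKM in the authors' deposited table, with 3 close regions and 76 tags. Cited2, a transcriptional coregulator, stood at 67.6 and 158 FPKM there, with 1 close region of 12 tags.

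From the cytokine list the higher genes included 1, Lif. Il4, Ebi3 and Tnfsf11, cytokine genes with only distant regions, were also higher in Tbx21-/- cells. Lif, a cytokine of the IL-6 family, stood at 39.1 and 81.3 FPKM in the authors' deposited table, with 3 close regions of 14, 36 and 35 tags from left to right and an H3K4me1 region 1119 bp from the nearest. Cyp11a1, the enzyme that starts steroid synthesis from cholesterol, stood at 65.6 and 144 FPKM in that deposited table, and its region of 1133 bp held 38 tags at 1141 bp from T-bet. Further higher genes were Ctss, Itpr2, Arhgap31, Eif4ebp1, Pmepa1, Ralb, Acot11, Mgll, Tspan32, 1190002H23Rik and 4932438H23Rik, with 1 to 8 close regions and log2 ratios from 1.02 to 2.99 in the authors' deposited table. Eif4ebp1 had a close region but 0 T-bet peaks assigned to it.

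The 11 lower genes had varied known roles, and of the gene lists only that of cytokine receptors held 1 of them, Il6st. Gcnt1, a glycosyltransferase that builds core 2 O-glycans, stood at 6.25 and 0.711 FPKM in the authors' deposited table, a log2 ratio of -3.12, and had 1 close region of 18 tags. Mmp9, a matrix metalloproteinase, stood at 17.2 and 3.38 FPKM in that deposited table. It had the longest close region of the group, of 2472 bp and 92 tags, 11279 bp from T-bet. Pag1, an adaptor that restrains T cell receptor signalling, had 4 close regions of 12 to 19 tags, and stood at 16.2 and 7.30 FPKM in the authors' deposited table. Tnfaip3, which encodes the inhibitor of NF-kappa-B signalling A20, had 1 close region of 11 tags at 9756 bp from T-bet. Il6st, the shared signalling subunit of the IL-6 family receptors, had 1 region of 22 tags, and Btg1, an antiproliferative gene, 1 of 14 tags at 1379 bp. Lrig1, with 2 close regions of 676 and 1060 bp, Etv5, with 1 of 875 bp, Gem, 0610040F04Rik and Entpd1 completed the group.

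H3K4me1 regions were listed near the close regions more often than near the other H3K27me3 regions. Of the 607 close regions 282 had an H3K4me1 region within 20 kb, 46.5% (exact 95% interval 42.4 to 50.5), where 22.8% of all 3949 H3K27me3 regions did, and of the other regions 618 did, 18.5% (17.2 to 19.9). Actual overlap was rare, with 19 of the 607 close regions, 3.13% (1.89 to 4.85), where 1.29% of all regions did, and 32 of the others, 0.958% (0.656 to 1.35). The share near H3K4me1 was 52.1% at 5 to 10 kb from T-bet and 45.7% at 10 to 20 kb, then 27.4% at 20 to 50 kb, 20.2% at 50 to 100 kb and 16.4% beyond 100 kb. T-bet peaks themselves lay within 20 kb of an H3K4me1 region in 39.8% (38.1 to 41.5) of 3226 cases, and the part of this in the result was not tested. By gene, 217 of the 403 closest genes, 53.8%, had an H3K4me1 region assigned, against 853 of 2467, 34.6%.

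**Figure D4:**
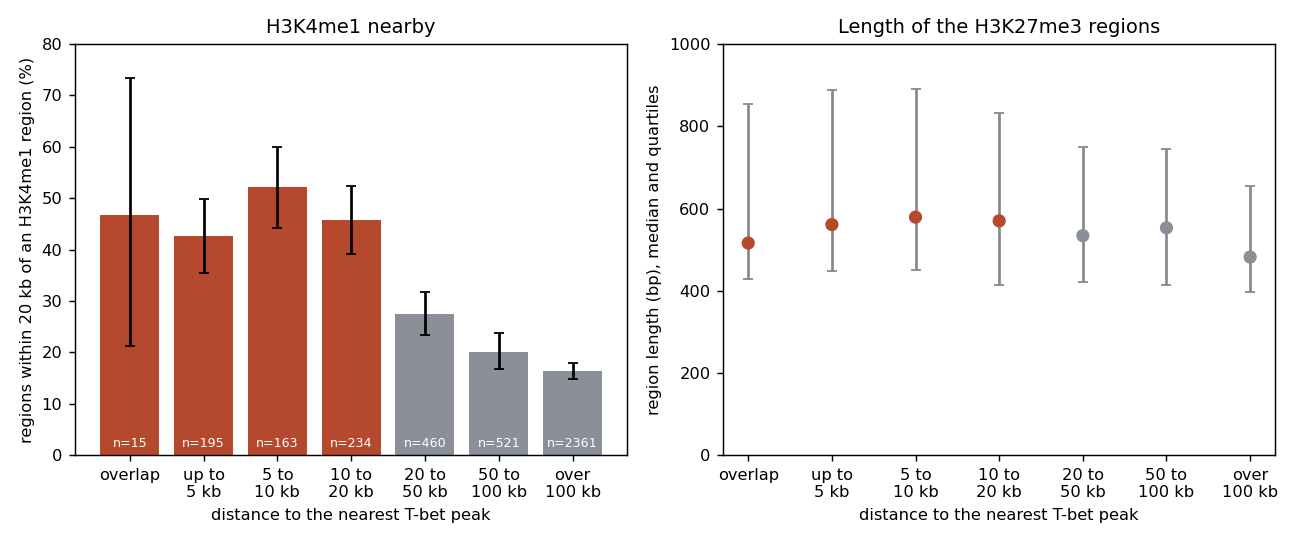
H3K27me3 regions are grouped by distance to the nearest T-bet peak, with the groups up to 20 kb in red and the others in grey. The left panel gives the share with an H3K4me1 region within 20 kb in percent with exact 95% intervals, and the right panel the median length in bp with quartiles. The share near H3K4me1 stood between 42.6% and 52.1% up to 20 kb and fell by steps to 16.4% beyond 100 kb, while median length ranged from 482 to 579 bp.

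A few close regions overlapped regions of both other kinds. A close region overlapped both a T-bet peak and an H3K4me1 region at Lpp, at Spry1 and in both overlapping regions of Sfpi1. Whether the T-bet peak and the H3K4me1 region also overlapped each other there was not computed. At Lpp the region of 537 bp on chromosome 16, from 24217057 to 24217593, held 24 tags. Close regions overlapped H3K4me1 alone at Galnt10, Nfkbia, Ly86, Tmprss6, Ifngr2, Pbx3, Cass4, P2rx4, Vps37b, Pde8a, Ifitm5, Tk2 and G530011O06Rik. Nfkbia encodes the NF-kappa-B inhibitor I-kappa-B-alpha. Since the wild type and Tbx21-/- libraries are not separated in these lists, overlap does not show that both marks were on the same chromatin.

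T-bet peaks near H3K27me3 differed little from the others in strength. The 466 peaks within 20 kb of an H3K27me3 region, 14.4% of 3226, had a median fold enrichment of 2.70 (order-statistic 95% interval 2.60 to 2.82), and the other 2760 peaks 2.60 (2.55 to 2.64). The median was 9 tags in both groups.

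The closest genes were also read against lists of genes by role. Over all closest genes 14.0% had a close region. Of 48 T helper lineage transcription factor genes, 23 had an H3K27me3 region and 7 of these a close one, 30.4% (exact 95% interval 13.2 to 52.9). Among them were Gata3, Stat3, Maf, Tcf7, Klf2 and Tox2. Gata3, the Th2 lineage factor, had 3 regions of 13 to 15 tags, the nearest 3743 bp from T-bet, and all 3 were close. Stat3, a transducer of IL-6 and IL-21 signals, had 1 of 14 tags at 2408 bp, and Klf2, a factor of T cell quiescence and migration, 1 of 17 tags at 4014 bp. Maf, which promotes IL-4 and IL-10 production, had 1 close region and 4 distant ones. The 16 lineage factor genes with only distant regions were Ets1, nearest at 21210 bp, Runx3, Irf8, Bcl6, Runx2, Id2, Ikzf1, Prdm1, Runx1, Id3, Eomes, Nfil3, Ahr, Foxp1, Pparg and Pou2af1, farthest at 579757 bp.

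Of 45 genes on the chemokine and chemokine receptor list, 14 had a region and 6 a close one, 42.9% (exact 95% interval 17.7 to 71.1): Ccr6, Ccr7, Ccr8, Ccr9, Cxcr4 and S1pr1. This list also holds genes of sphingosine-1-phosphate receptors, which are not chemokine receptors, and the share counts S1pr1 as close and S1pr3 as distant. Ccr7, the lymph node homing receptor, had 2 close regions with 109 tags over 3169 bp, at 3392 bp from T-bet at the nearest. Ccr9, the gut homing receptor, had 1 of 22 tags, and Cxcr4 had 1 of 23 tags. Of these 6, Ccr6 and Ccr8 were on the list of genes higher in Tbx21-/- cells and 0 on the list of lower genes. Over all 2870 closest genes, 2.40% were on the list of higher and 1.25% on that of lower genes. Each of the 6 genes encodes a receptor and none a ligand. The 8 with only distant regions were Ccl9, nearest at 25328 bp, Cxcr2, Cxcl16, Cxcl12, S1pr3, Ccr4, Cx3cl1 and Cxcl2, farthest at 820263 bp. Among these 8, Ccr4 was also on the list of higher genes, and 0 were on that of lower genes.

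Of 61 cytokine receptor genes, 18 had a region and 5 a close one, 27.8% (9.69 to 53.5): Ifngr2, Ifnar1, Ifnar2, Il6st and Tgfbr1. The TGF-beta receptor gene Tgfbr1 had 1 region of 17 tags at 3138 bp. The 13 with only distant regions were Tnfrsf8, nearest at 24747 bp, Il6ra, Il4ra, Il1rl2, Il31ra, Il1r1, Il9r, Tnfrsf11a, Csf2rb2, Tgfbr2, Tgfbr3, Osmr and Lifr, farthest at 319620 bp. Of 46 cytokine genes, 11 had a region and 3 a close one, 27.3% (6.02 to 61.0): Il17a, Il27 and Lif. Il17a, the signature Th17 cytokine gene, had 1 region of 1535 bp and 54 tags, 17215 bp from T-bet, while the 3 regions of its neighbour Il17f were farther off, the nearest at 26576 bp. Il27 had 1 region of 17 tags at 16410 bp and 0 T-bet peaks assigned to it. Il4, the Th2 cytokine gene, had 1 region at 56612 bp, and Tgfb3, Ebi3, Il6, Tnfsf11, Il15 and Il12b also had only distant ones, at 38566 to 1692356 bp.

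Of 163 homeobox and other developmental transcription factor genes, 27 had an H3K27me3 region and 0 of these a close one, which allows a share of up to 11.1% by 3 counts of 27 and 12.8% by the exact 95% interval. Developmental genes outside this list did have close regions, such as Pbx3 above. Among the 27 genes of the list with a region, the nearest to T-bet was Neurod2, at 93732 bp. Of 72 axon guidance genes, 11 had a region and 0 a close one, which allows a share of up to 27.3% by 3 counts of 11 and 28.5% by the exact interval. Of 114 WNT, BMP, FGF, hedgehog and Notch signalling genes 19 had a region and 2 a close one, Inhba and Fgf2. All intervals here cover counting error only, and the intervals of the immune lists other than that of the chemokine list include 14.0%.

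**Figure D5:**
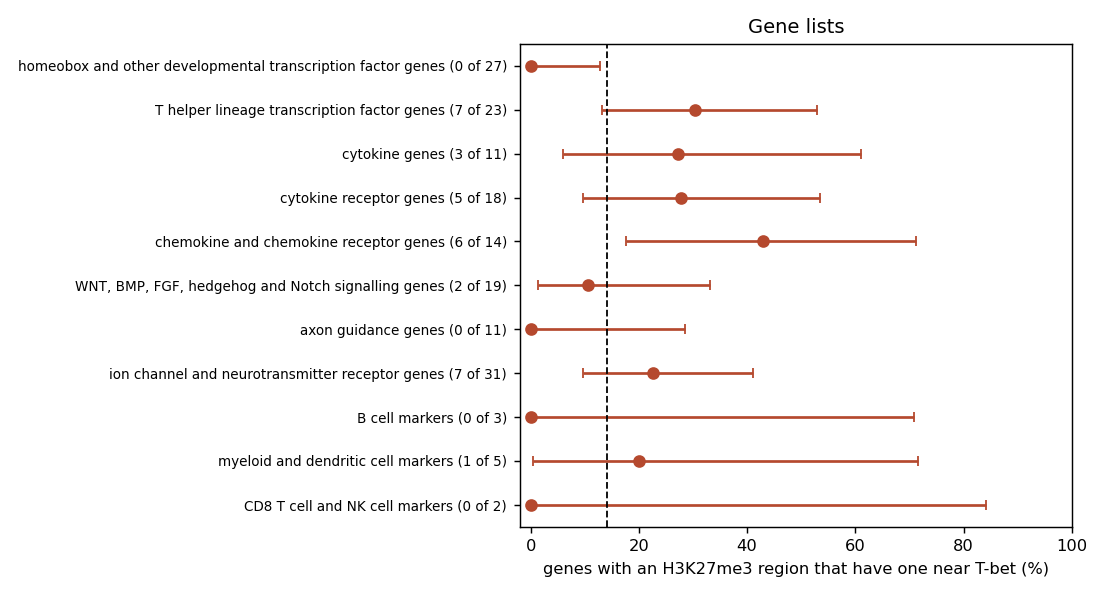
For each gene list, the point gives the share in percent of its genes with an H3K27me3 region that had one within 20 kb of T-bet, with the exact 95% interval and, in brackets, the counts. The dashed line is the share over all 2870 closest genes, 14.0%. The chemokine and chemokine receptor list, which includes S1pr1 and S1pr3, stood highest at 42.9%, and the developmental and axon guidance lists stood at 0.

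Markers of other cell types were few. Of 16 B cell markers 3 had an H3K27me3 region and 0 a close one, and 12 markers of NK cells and of CD8 T cells gave 2 and 0. The exact 95% upper limits were 70.8% and 84.2%. Of 33 myeloid and dendritic cell markers 5 had a region and 1 a close one, Sfpi1, with 4 regions and 95 tags. H2-Ab1, an MHC class II gene on the list of genes higher in Tbx21-/- cells, had 1 region 48179 bp from T-bet. The B cell marker Pou2af1 was on that list too and had 2 regions, the nearest 579757 bp from T-bet. The other markers with only distant regions were on neither expression list. Expression is listed only for genes the authors called, so summed levels of these markers per genotype are not given, and their part in the results was not tested.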

How the data were processed

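The data are 5 lists made by the authors. The deposited T-bet, H3K4me1 and H3K27me3 lists give each region's position, its tag count, its fold enrichment as a ratio set by the authors' caller and, for T-bet, a false discovery rate in percent. The deposited expression lists give 1 FPKM value for each genotype, with no error, and the authors' log2 ratio with wild type as the denominator. The build mm9 and the tools MACS 1.4.1, TopHat 1.3.3, Bowtie 0.12.7, DESeq and CASAVA 1.7 are named in the submitters' processing notes, with no role. The caller's control is given in the labels for T-bet only, an input library. Sequencing depth is unknown. A gene absent from the H3K27me3 list may still carry the mark.

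From these lists, gaps were measured between edges. Gene names were matched as written, and 6 H3K27me3 entries whose name had become a date were not matched. For the gene lists, names were also matched through RefSeq synonyms (GRCm38.p6, names only); 402 of 403 had a current symbol. Shares have exact Clopper-Pearson and medians order-statistic 95% intervals, which cover counting error only. No test was run, since regions are not replicates and each histone mark had 1 library per genotype. Promoter CpG content could not be compared between close and other genes, because 77.2% and 74.9% of them had an entry, under the 80% needed, which makes that check void. The members and lists were chosen with earlier results of these data known. Genes were named if their regions overlapped T-bet, were among the 10 with the most tags or the 5 on either side of the limit, had 3 or more close regions, were on an expression list or in a gene list (for developmental and neuronal lists, the 5 with the most tags). Kcna3, Cacna1f, Neurod2, H2-Ab1, the genes with H3K4me1 overlap and the P2rx7 fold enrichment were chosen after their values were seen. Some genes that this rule covers are not reported here, and the counts include them. Distances and intervals were checked on simulated data. The software was SciPy 1.17.1, pandas 2.3.3, matplotlib 3.10.9, numpy 2.4.6 and Python 3.11.15.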

Additional observations from a re-analysis of the deposited data

How the results depend on the processing

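Of 93 recomputed values over 14 settings, 70 stayed within the interval of the reported value, or within 1.5 times of a count, and the direction between close and other regions changed in 2. The count of 607 became 210 with a gap of at most 5 kb, 373 with 10 kb, 1067 with 50 kb, 15 with overlap only, 377 with T-bet peaks at or above the median fold enrichment, 302 with peaks at or below the median false discovery rate, 266 with H3K27me3 regions at or above the median fold enrichment and 364 with 1 region per closest gene. That setting and those without genes of 5 or more close regions, without the region closest to Vmn1r2 and without the Ifngr2 locus (chromosome 16 only) were added after the data were seen, and the last 3 left every value they were run on within these limits. With overlap only, over 15 regions, the median length was 516 bp, the median tag count 19 or 36.8 per kb, the median fold enrichment 7.65, above the 7.22 of the other regions, the share of genes lower in Tbx21-/- cells 0%, below the 1.26% of the others, and that of genes higher 14.3%. With H3K27me3 regions at or above the median fold enrichment, the medians were 469.5 bp, 16 tags, 36.0 tags per kb and a fold enrichment of 8.85, equal to that of the other regions. Between the quartiles of length, the medians were 19 tags and 36.3 per kb. The median fold enrichment was 6.655 with a gap of at most 5 kb, the share near H3K4me1 was 38.2% with 50 kb, and the share of higher genes was 9.39% when regions were counted in place of genes. The causes were not tested beyond what the settings themselves leave out. No paired analysis was possible because the expression lists hold 1 value per genotype, and leaving out RNA-seq replicates was not run for the same reason.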

Other observations

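Ion channel genes were among the closest genes of regions close to T-bet. Of 144 ion channel and neurotransmitter receptor genes, 31 had an H3K27me3 region and 7 a close one, 22.6% (exact 95% interval 9.59 to 41.1), against 14.0% of all closest genes. P2rx4 and P2rx7, receptors for extracellular ATP, had 2 close regions each with 31 and 40 tags. A region of P2rx7 on chromosome 5, at 123088440 to 123088989, had a fold enrichment of 13.7, among the 3 highest of the close regions, and lay 6230 bp from a T-bet peak of 27 tags. Kcna3, the voltage-gated potassium channel of T cells, had 1 close region of 17 tags, and Kcnn3, a calcium-activated potassium channel, 1 of 36 tags. Kcnn1, Scn4a and Cacna1f had 1 each, with 49, 41 and 19 tags. None of these 7 genes was on an expression list.

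By chromosome, the share of H3K27me3 regions close to T-bet was 8.84% (exact 95% interval 5.40 to 13.5) of 215 regions on chromosome 6 and 22.2% (16.2 to 29.2) of 171 on chromosome 16. These were the lowest and the highest share among the autosomes. Chromosome 3 stood at 21.8% (16.4 to 27.9) of 216 regions and chromosome 17 at 21.8% (15.1 to 29.8) of 133. Of the 38 close regions on chromosome 16, 12 belonged to the Ifngr2 locus, and without all regions of that locus the share was 16.6% (11.1 to 23.3), beside 15.1% on the other chromosomes. Chromosome X had 7 of 24 regions close, 29.2% (12.6 to 51.1).

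The region closest to Vmn1r2, a vomeronasal receptor gene, had the second largest tag count of the close regions, 246 over 4227 bp. It lay at 3007569 to 3011795, at the start of chromosome 4 as listed, and met 2 T-bet peaks with 25 and 24 tags and fold enrichments of 1.44 and 1.21.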
